A study of Mus musculus with 4 samples.

Results

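The interleukin receptor genes examined here are the genes of the deposited expression table whose symbol begins with Il, a number and r, with the receptor antagonist Il1rn left out. This rule gave 38 of 17335 genes. RNA-seq was performed on gonadal white adipose tissue (gWAT) of female mice fed a high-fat diet (HFD) for 18 weeks. AD1KO mice carry floxed Dnmt1 alleles and an adiponectin-Cre transgene, which deletes this maintenance DNA methyltransferase in adipocytes, so the immune, stromal and vascular cells of the pad keep the gene. The fl/fl controls were littermates with the floxed alleles and intact Dnmt1, on the same diet. RNA of 4 animals was pooled for each genotype and gave 1 library, and values therefore compare the libraries with no measure of the spread between animals. The age of the mice is not given in the labels, and the bisulfite sequencing libraries were not used here.

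Interleukin receptors are assembled from chains. A chain that binds the cytokine is joined by a signalling chain, and several signalling chains are shared: the common gamma chain by IL-2, IL-4, IL-7, IL-9, IL-15 and IL-21, gp130 by IL-6 and IL-11, and IL-12 receptor beta 1 by IL-12 and IL-23. Receptors of these groups and of the IL-10 family signal through JAK kinases and STAT factors, whereas IL-1 family receptors carry a TIR domain that recruits MyD88, and IL-17 receptors carry the related SEFIR domain. In obese fat, such receptors are borne by T cells, NK cells, innate lymphoid cells, macrophages and mast cells, and some also by adipocytes, stromal cells and epithelia.

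Levels are given as FPKM, fragments scaled by gene length and library size. The log2 ratio sets AD1KO against fl/fl after 0.01 was added to both FPKM values, and a gene was counted as lower or higher at a log2 ratio of 0.5 in either direction. Reads per gene were estimated from FPKM and length, at a depth of about 17700000 for the fl/fl library and 17450000 for the AD1KO library. The 95% intervals are exact Clopper-Pearson intervals on these reads and cover counting error only. Dnmt1 (gene 13433, minus strand of mm9 chromosome 9, 20711650 to 20757317) measured 6.99 FPKM in fl/fl against 3.33 in AD1KO, and the log2 ratio was -1.07 (interval -1.27 to -0.87). The lower level lay in the library labelled AD1KO.

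Among receptor genes with at least 20 reads, Il12rb1, Il18rap, Il2rb and Il21r had the lowest ratios of AD1KO to fl/fl, while Il17re, Il22ra1, Il17rd and Il13ra2 were higher. Of the 38 genes, 36 reached 0.1 FPKM in at least 1 library. Among these, 19 were lower and 6 higher, and 11 were neither. Over all 15839 genes that reached this level, 19.1% were lower and 14.3% higher. Counts by receptor family and by gene list below are to be read against these shares. Of the 6 higher receptor genes, Il22ra1, Il5ra and Il22ra2 reached 0.1 FPKM only in AD1KO, and of the lower ones Il23r did so only in fl/fl, so that their direction follows from the minimum. With a minimum of 1 FPKM, 16 of 27 receptor genes were lower and 2 higher, against 16.3% and 10.1% of all genes. The median log2 ratio was -0.62 over the receptor genes and -0.04 over all genes. The whole counting interval lay below -0.5 for 12 receptor genes and above 0.5 for 2, against 8.26% and 4.18% of all genes. Those above 0.5 were Il17re and Il22ra1, and Il22ra1 reached the minimum only in AD1KO. The 2 genes under the level, Il20ra (0.09 and 0.03 FPKM) and Il31ra (0.03 and 0.06 FPKM), each had 6 or fewer reads over both libraries.

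**Figure D1:**
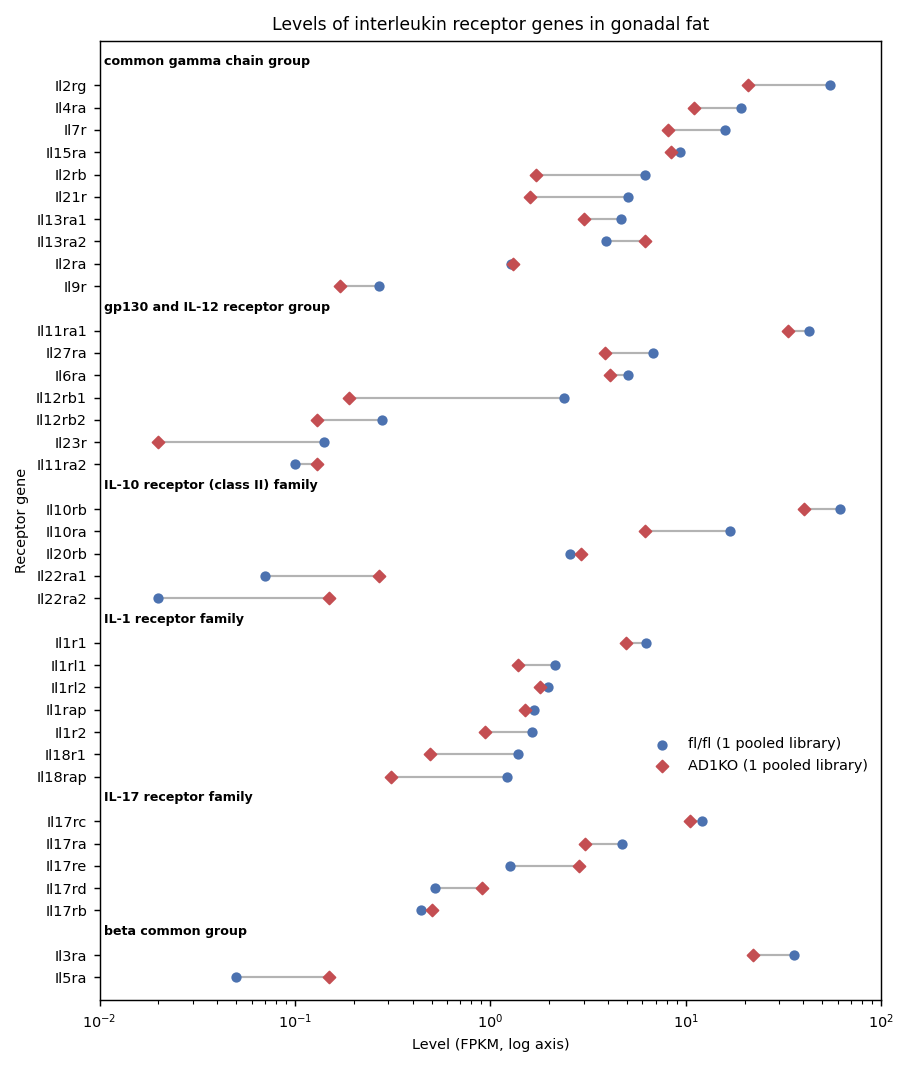
Level of each of the 36 receptor genes that reached 0.1 FPKM, by receptor group, on a log axis of FPKM, with circles for the fl/fl library and diamonds for the AD1KO library. The IL-13 chains Il13ra1 and Il13ra2 are drawn with the common gamma group. Il10rb and Il2rg are the most abundant in fl/fl, at 61.9 and 54.8 FPKM, and the widest gap among genes above 1 FPKM in fl/fl is that of Il12rb1, from 2.37 to 0.19 FPKM.

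The chains of the common gamma group were lower in 7 of 10 genes, and the shared chain itself had the largest difference in reads. As counted, this group also holds the IL-13 chains Il13ra1 (lower) and Il13ra2 (higher). IL-13 is not among the cytokines listed above for the common gamma chain. Il2rg, the common gamma chain (gene 16186, minus strand of mm9 chromosome X at 98459717 to 98463594), measured 54.8 FPKM in fl/fl against 20.8 in AD1KO, from about 1497 and 559 reads. It was 2.64-fold lower, and its log2 ratio was -1.40 (interval -1.54 to -1.26). In the sentences that follow, paired levels give fl/fl first and AD1KO second. Il2rb (CD122), the signalling chain that IL-2 and IL-15 share and a gene of NK and memory CD8 T cells (gene 16185, minus strand of chromosome 15 at 78310983 to 78325496), was at 6.15 and 1.71 FPKM. Its ratio of -1.84 (interval -2.24 to -1.48) lay below that of Il2rg, and the FPKM of Il2rg over Il2rb went from 8.92 to 12.1. The difference of their log2 ratios, 0.44, had a counting interval from 0.05 to 0.83.

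Il2ra (CD25), the chain that gives the IL-2 receptor its high affinity and marks regulatory and activated T cells, had 1.28 FPKM in fl/fl against 1.30 in AD1KO, about 98 reads in each. Its interval ran from -0.40 to 0.44. The level of Il2rb over Il2ra was thus 4.80 in fl/fl and 1.32 in AD1KO, a difference of log2 ratios of -1.86 (interval -2.41 to -1.32). The chains of this receptor thus had unequal ratios. Il2, their ligand, had about 3 reads in the control library and was listed at 0 in the other, too few for a ratio.

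Il21r, the receptor of the T cell cytokine IL-21 (gene 60504, plus strand of chromosome 7 at 132746943 to 132777084), was at 5.07 and 1.60 FPKM, a ratio of -1.66 (interval -2.06 to -1.26). Il7r (CD127), which naive T cells and innate lymphoid cells need for survival, was at 15.9 and 8.08 FPKM, a ratio of -0.97 (interval -1.14 to -0.81). Il7r differed less than the common gamma chain it pairs with, as Il2rg over Il7r was 3.46 in fl/fl and 2.57 in AD1KO (difference of log2 ratios -0.43, interval -0.65 to -0.21). Its ligand Il7, made by stromal cells, was higher in AD1KO, at 1.11 and 1.93 FPKM (ratio 0.79, interval 0.31 to 1.32). Il9r was at 0.27 and 0.17 FPKM, and its interval from -2.01 to 0.69 shows no detectable difference at 23 reads.

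Il15ra, which holds IL-15 on the surface of myeloid and stromal cells and presents it to lymphocytes, was at 9.30 and 8.41 FPKM, with an interval from -0.41 to 0.12. Il15 itself was at 6.15 and 3.07 FPKM, and its interval ran from -1.45 to -0.54. In the receptor that reads IL-15, the presenting chain and the signalling chain thus differed, with Il15ra over Il2rb at 1.51 in fl/fl and 4.92 in AD1KO (difference of log2 ratios 1.70, interval 1.25 to 2.14).

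The receptors of type 2 cytokines split. Il4ra, the chain that IL-4 and IL-13 share and that directs macrophages to their alternative state, was at 19.2 and 10.98 FPKM, a ratio of -0.81 (interval -0.92 to -0.69). Il13ra1, its partner on non-lymphoid cells, was at 4.66 and 3.03 FPKM, a ratio of -0.62 (interval -0.89 to -0.35). The difference between these partners, -0.19, had an interval from -0.47 to 0.10, which includes 0. Il13ra2, a high-affinity IL-13 receptor known as a decoy (gene 16165, minus strand of chromosome X at 143818019 to 143863735), went the other way, from 3.89 to 6.15 FPKM (ratio 0.66, interval 0.36 to 0.96). Il13ra2 over Il13ra1 was 0.835 in fl/fl and 2.03 in AD1KO, a difference of log2 ratios of 1.28 (interval 0.89 to 1.67). The ligands were near the limit of detection: Il4 had about 2 and 1 reads, and Il13 was listed at 0 in the control library against about 7 reads in AD1KO.

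In the gp130 and IL-12 group, 4 of 7 genes were lower and 0 higher. Of the lower genes, Il23r reached 0.1 FPKM only in fl/fl. The lowest ratio among receptor genes with at least 20 reads was that of Il12rb1, the chain that the IL-12 and IL-23 receptors share on T and NK cells (gene 16161, plus strand of chromosome 8 at 73332348 to 73345323). Its levels were 2.37 and 0.19 FPKM, on about 116 and 9 reads, a 12.5-fold lower level (ratio -3.57, interval -4.83 to -2.69). The partner chains were scarce in both libraries. Il12rb2, the IL-12 chain of Th1 and NK cells, was at 0.28 and 0.13 FPKM (interval -2.78 to 0.40), and Il23r, the IL-23 chain, at 0.14 and 0.02 FPKM, about 6 and 1 reads. Il12b, which encodes the p40 subunit of both cytokines, was at 0.54 and 0.17 FPKM (ratio -1.61, interval -3.16 to -0.43), and Il12a and Il23a had 5 or fewer reads in all.

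Il27ra, the receptor of IL-27 on T cells and NK cells, was at 6.76 and 3.86 FPKM, a ratio of -0.81 (interval -1.09 to -0.54). Ebi3, a subunit of IL-27, was at 12.9 and 5.44 FPKM (ratio -1.24, interval -1.59 to -0.90), and Il27 at 0.67 and 0.29 FPKM with only about 7 and 3 reads. Il6ra and Il11ra1 did not reach the threshold. Il6ra, expressed by macrophages and T cells, was at 5.05 and 4.08 FPKM, a ratio of -0.31 (interval -0.56 to -0.05). Il11ra1, the IL-11 chain of stromal cells, was among the most abundant members at 42.9 and 33.2 FPKM, a ratio of -0.37 (interval -0.49 to -0.25). Il11ra2, a near-identical copy, had about 5 and 6 reads, and reads of these copies may be assigned to either. Il6st, which encodes gp130, was at 21.4 and 25.5 FPKM, with a ratio of 0.25.

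In the IL-10 receptor family, 2 of 5 genes were lower and 2 higher, against 19.1% and 14.3% of all genes. Both higher genes, Il22ra1 and Il22ra2, reached 0.1 FPKM only in AD1KO, so that their direction follows from the minimum. The specific chain of the IL-10 receptor had a lower ratio than the shared chain. Il10ra, through which leukocytes sense IL-10 (gene 16154, minus strand of chromosome 9 at 45061922 to 45077232), was at 16.9 and 6.17 FPKM, a ratio of -1.45 (interval -1.63 to -1.28). Il10rb, which many cell types express and which also serves IL-22 and interferon lambda, was at 61.9 and 40.2 FPKM, a ratio of -0.62 (interval -0.73 to -0.52). Il10rb over Il10ra was 3.66 in fl/fl and 6.52 in AD1KO, a difference of log2 ratios of 0.83 with an interval from 0.63 to 1.03. Il10, their ligand, was at 2.14 and 0.62 FPKM (ratio -1.77, interval -2.79 to -0.86).

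Of the chains of this family known from epithelia, Il22ra1 and the related Il22ra2 were scarce and Il20rb was not. Il20rb, a chain of the IL-19, IL-20 and IL-24 receptors, was at 2.56 and 2.90 FPKM (interval -0.20 to 0.58). Il22ra1, the IL-22 chain of epithelial cells (gene 230828, plus strand of chromosome 4 at 135284087 to 135308055), was at 0.07 and 0.27 FPKM, about 7 and 27 reads. Its ratio of 1.81 had an interval from 0.73 to 3.41, wholly above 0.5, at a level in the lowest part of the range. Il22ra1 reached 0.1 FPKM only in AD1KO, so its direction follows from the minimum. The soluble IL-22 binding protein gene Il22ra2 had about 1 and 6 reads, with an interval from -0.44 to 8.13. Epithelial markers were mixed beside these values, 2 of 6 lower and 1 higher, with Krt19 at 21.1 and 35.8 FPKM (ratio 0.76), Wfdc2 at 3.64 and 0.39 FPKM (ratio -3.19, interval -5.18 to -1.75) and Cdh1 at 0.23 and 0.08 FPKM on about 18 and 6 reads. Their part in the result was not tested.

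**Figure D2:**
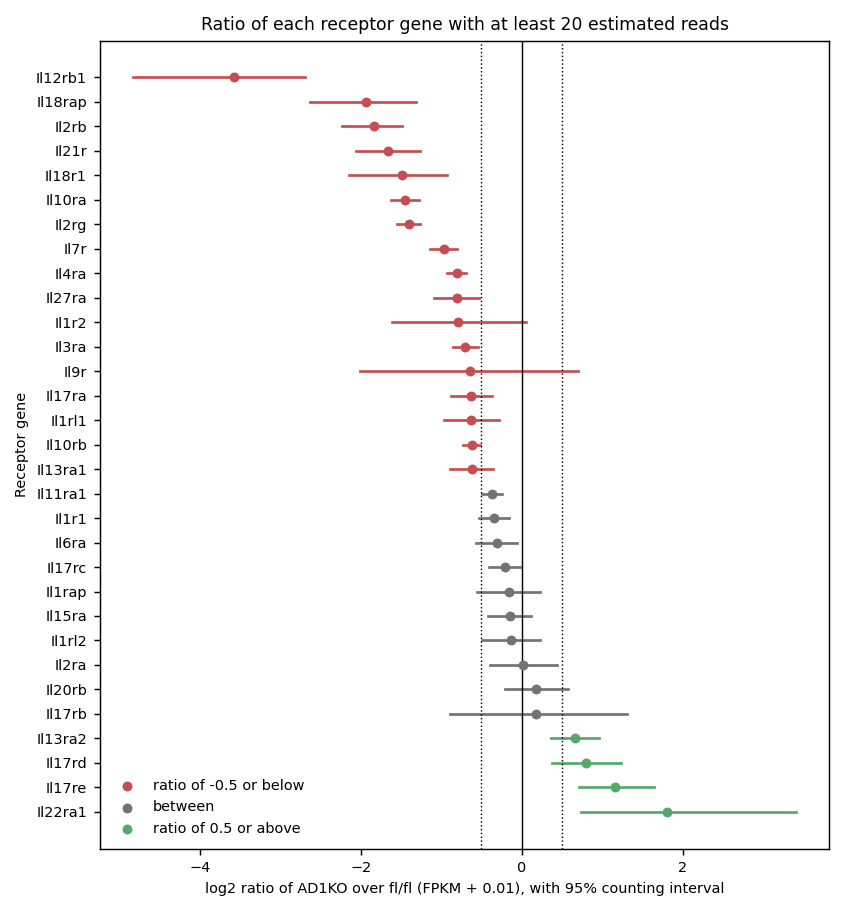
log2 ratio of AD1KO over fl/fl for the 31 receptor genes with at least 20 estimated reads, with horizontal bars for the 95% counting interval and dotted lines at -0.5 and 0.5. Il12rb1 stands at -3.57, and 7 genes lie at or below -1, while Il13ra2, Il17rd, Il17re and Il22ra1 lie above 0.5.

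The 7 IL-1 family receptors all had a ratio under 0, and 4 were lower. Of all 15839 genes, 8527 also had a ratio under 0. The counting interval included 0 for 3 of the 7, Il1r2, Il1rap and Il1rl2. The IL-18 receptor chains had the lowest ratios. Il18rap, its accessory chain (gene 16174, plus strand of mm9 chromosome 1 at 40572207 to 40608550), was at 1.21 and 0.31 FPKM, a ratio of -1.93 (interval -2.63 to -1.32). Il18r1, its ligand-binding chain (gene 16182, plus strand of chromosome 1 at 40522397 to 40557699), was at 1.39 and 0.49 FPKM, a ratio of -1.49 (interval -2.15 to -0.93). The difference between the chains, 0.45, had an interval from -0.40 to 1.29, and they cannot be separated at this depth. Both chains are typical of NK and Th1 cells. Their ligand Il18 was at 10.4 and 8.40 FPKM, a ratio of -0.31 whose interval began at -0.63 and included 0, and did not reach the threshold.

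The IL-1 receptor itself changed less. Il1r1, the signalling receptor of stromal and other cells, was at 6.29 and 4.95 FPKM, a ratio of -0.35 (interval -0.53 to -0.16). Il1rap, the accessory chain of the IL-1, IL-33 and IL-36 receptors, was at 1.68 and 1.51 FPKM (interval -0.56 to 0.23). Il1r2, a decoy without a signalling domain, was at 1.64 and 0.94 FPKM, a ratio of -0.80 whose interval, -1.61 to 0.06, included 0. The difference between Il1r1 and Il1r2 was not detectable at this depth (0.45, interval -0.35 to 1.25). Il1a had about 13 and 9 reads, and Il1b about 26 and 18.

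Il1rl1 (ST2), the IL-33 receptor of regulatory T cells, mast cells and type 2 innate lymphoid cells, was at 2.15 and 1.39 FPKM, a ratio of -0.63 (interval -0.97 to -0.28). Its ligand Il33 was at 5.74 and 5.80 FPKM (interval -0.25 to 0.28). Il1rl2, the IL-36 receptor, was at 1.97 and 1.80 FPKM (interval -0.50 to 0.23).

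The IL-17 receptor family had 1 lower and 2 higher members of 5, against 19.1% and 14.3% of all genes. The lower share, 20%, is near that of all genes. By the whole counting interval past 0.5, 0 members were lower and 1 higher. Il17ra, the chain all these receptors share and which leukocytes express strongly, was at 4.73 and 3.06 FPKM, a ratio of -0.63 (interval -0.88 to -0.37). Il17rc, the IL-17A and IL-17F chain of non-haematopoietic cells, was the most abundant at 12.2 and 10.5 FPKM, a ratio of -0.21 (interval -0.40 to -0.02). Il17re, the IL-17C chain of epithelial cells (gene 57890, plus strand of chromosome 6 at 113408478 to 113420745), was at 1.26 and 2.83 FPKM, on about 58 and 129 reads. It was 2.25-fold higher (ratio 1.16, interval 0.72 to 1.65), and Il17re over Il17ra went from 0.266 to 0.925 (difference of log2 ratios 1.79, interval 1.27 to 2.30).

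Il17rd, also known as Sef, an inhibitor of growth factor signalling, was at 0.52 and 0.91 FPKM (ratio 0.80, interval 0.38 to 1.23). Il17rb, the IL-25 chain, was at 0.44 and 0.50 FPKM from 32 reads in all. Of the family's ligands, Il17d was at 5.37 and 6.75 FPKM (ratio 0.33, interval -0.05 to 0.71), and Il17b was listed at 0 in the control library against about 2 reads in AD1KO.

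Chains that pair with the common beta chain had unequal depth. Il3ra, expressed by mast cells, basophils and some macrophages (gene 16188, plus strand of chromosome 14 at 15179009 to 15188004), was abundant at 36.0 and 22.1 FPKM, a ratio of -0.70 (interval -0.85 to -0.55). Il5ra, the IL-5 chain of eosinophils and some B cells, had about 3 and 9 reads, with an interval from -0.40 to 4.13. The beta chain genes Csf2rb (11.4 and 6.49 FPKM) and Csf2rb2 (9.62 and 5.41 FPKM) had ratios of -0.81 and -0.83, and as near copies they may share reads.

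The tissue held fewer leukocyte transcripts in the AD1KO library, and in bulk tissue fewer cells of a type and less RNA per cell cannot be told apart. Markers of leukocytes were lower in 4 of 4 genes, with Ptprc (CD45) at 27.3 and 11.3 FPKM, a ratio of -1.27 (interval -1.38 to -1.17). T cell markers were lower in 8 of 8 genes (summed level 68.1 and 20.6 FPKM, median ratio -1.64) and NK and cytotoxic cell markers in 8 of 8 (59.6 and 14.8 FPKM, median -2.03). Mast cell markers were lower in 7 of 7 genes (373 and 137 FPKM, median -1.35), macrophage markers in 6 of 8 (3405 and 1696 FPKM, median -0.89) and B cell markers in 4 of 6 (96.5 and 62.6 FPKM, median -0.69). Adipocyte markers were higher in 7 of 7 genes (16523 and 25254 FPKM, median 0.58), while endothelial markers had a median ratio of 0.31 and stromal progenitor markers of 0.04. The stromal progenitor markers were split, with 2 of 7 lower (Ly6a at -1.31 and Pi16 at -0.70) and 1 higher (Dpp4 at 0.50). Neutrophil markers (4 of 5 lower, 1 higher) and eosinophil markers (2 of 3 lower) rested on fewer reads. The summed level of the neutrophil markers was higher in AD1KO (45.3 and 64.0 FPKM), with S100a8, the higher marker, at 32.7 and 57.3 FPKM. Mpo and Ear6 from these lists were listed at 0 in fl/fl. No marker of the other lists was at 0 in either library. Their part in the receptor values was not tested.

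Against Ptprc, the intervals of Il12rb1 and Il2rb lay wholly below. Of the 31 members with at least 20 reads, 7 had an interval that overlapped that of Ptprc. They were Il18rap, Il21r, Il18r1, Il10ra and Il2rg, and, with wide intervals at 57 and 23 reads, Il1r2 and Il9r. The other 22 lay wholly above it, among them Il7r, Il4ra, Il27ra and Il3ra, which count as lower. These counts were not made over all genes. The median ratio of all genes was -0.04, and 8.95% of them had a ratio of -1 or below. Most genes of the table thus also had a ratio above that of Ptprc, and a place above it is not particular to receptors.

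**Figure D3:**
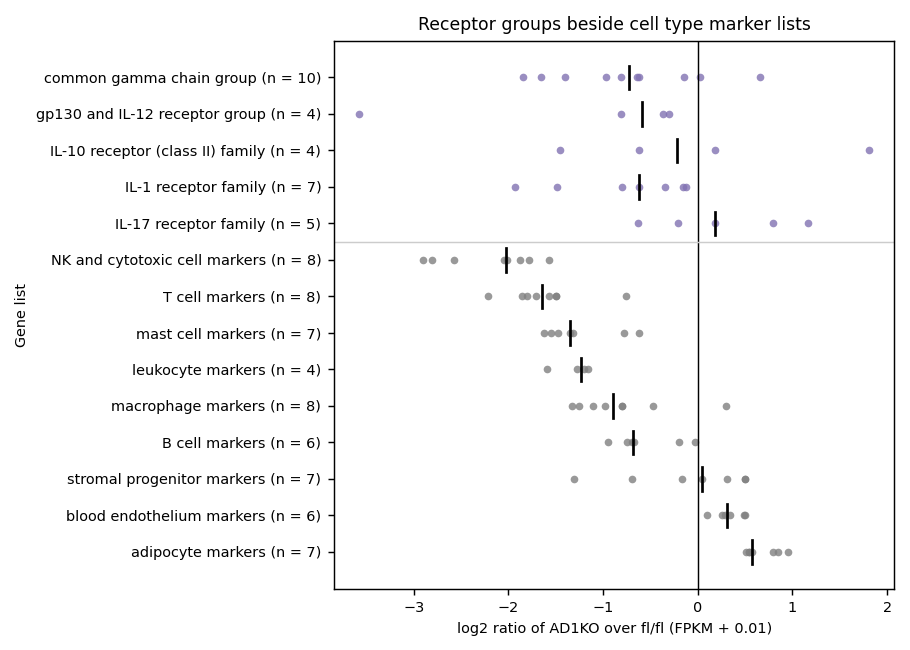
log2 ratio of AD1KO over fl/fl for each receptor gene with at least 20 reads, by group (upper 5 rows), and for the genes of 9 cell type marker lists (lower rows), with a black bar at each median. The row of the common gamma group includes the IL-13 chains Il13ra1 and Il13ra2. The receptor genes run from -3.57 to 1.81, and the marker medians run from -2.03 for NK and cytotoxic cells to 0.58 for adipocytes.

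Signalling genes downstream of the receptors had unequal ratios. In the JAK-STAT list, 3 of 10 genes were lower and 0 higher. This count and those of TIR and SEFIR signalling genes and of shared subunits are to be read against the 19.1% and 14.3% of all genes. Stat2, a factor of interferon signalling, was at 13.0 and 4.89 FPKM (ratio -1.41), and Stat4, which IL-12 activates in T and NK cells, at 2.89 and 1.07 FPKM (ratio -1.43, interval -1.94 to -0.96). Tyk2, the other lower gene, was at 8.18 and 5.18 FPKM (ratio -0.66). Stat6, which IL-4 and IL-13 activate, was at 43.7 and 39.9 FPKM (ratio -0.13), and Stat5a, which IL-2, IL-7 and IL-15 activate, at 10.9 and 12.3 FPKM (ratio 0.18). The related Stat5b went the other way, at 11.45 and 9.84 FPKM (ratio -0.22, interval -0.35 to -0.08). Stat5a was the only gene of the list with a ratio above 0. Jak3, the kinase bound by the common gamma chain, was at 14.8 and 11.7 FPKM, a ratio of -0.34 (interval -0.46 to -0.23) that lay above the interval of Il2rg. Of 12 genes for TIR and SEFIR signalling, only Myd88 was lower, at 31.0 and 18.0 FPKM (ratio -0.79), a smaller share than over all genes, and 0 were higher. Of 10 genes listed as shared subunits outside the symbol rule, 5 were lower and 1 higher, the CNTF receptor gene Cntfr, at 2.61 and 4.92 FPKM.

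Of 20 interleukin ligand genes that reached 0.1 FPKM, 11 were lower and 4 higher, against 19.1% and 14.3% of all genes. Their median ratio was -0.53, against -0.04 over all genes. The whole interval lay below -0.5 for 3 ligand genes and above 0.5 for 1, Il13. Of the higher ligand genes, Il13, Il5 and Il17b reached this level only in AD1KO, and of the lower ones Il2 only in fl/fl, so that their direction also follows from the minimum. With the genes listed at 0 in 1 library at the bound that 3 reads allow, the median was -0.54. Of these 20 genes, 9 had under 20 reads, so their direction rests on few reads.

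Interleukin receptor genes lie close together at several places in the mm9 genome. By a gap of at most 200 kb, 16 of the 38 form 6 neighbourhoods. On chromosome 1, 6 IL-1 family genes lie on the plus strand from 40141613 to 40608550, in the order Il1r2, Il1r1, Il1rl2, Il1rl1, Il18r1 and Il18rap. Their log2 ratios in this order were -0.80, -0.35, -0.13, -0.63, -1.49 and -1.93. Il1rl1 and Il18r1 are 0.137 kb apart, and neighbours on the same strand that lie so close may share reads.

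Other neighbours also differed. On chromosome 6, Il17re and Il17rc lie 0.676 kb apart from 113408478 to 113433134, and the ratio of Il17re exceeded that of Il17rc by 1.37 (interval 0.88 to 1.85). On chromosome 7, Il4ra and Il21r lie from 132695785 to 132777084, with ratios of -0.81 and -1.66 and intervals that do not overlap. On chromosome 2, Il2ra and Il15ra lie from 11564419 to 11655613, and neither reached the threshold.

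Because the deleted gene maintains DNA methylation, the CpG content at the receptors' start sites is given beside the ratios. RefSeq windows of 300 bases, 250 before and 50 after each annotated start in GRCm38.p6, were matched for 29 of the 36 genes. Il12rb1, Il2rb, Il10ra, Il27ra, Il17ra and Il10rb, which were lower, and Il22ra2, which was higher, had no match. The genes without a window were thus mostly lower ones, and the values by direction leave them out. The receptor windows held a median of 6.67 CpG per gene, and those of 11901 genes of the table that reached 0.1 FPKM held 19. Lower receptor genes had a median of 6.67 CpG (13 genes), higher ones 4 (5 genes) and the others 7 (11 genes). Over all genes the medians were 11.5, 12 and 21. Methylation at these windows was not analysed here.

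The 150 bases before the start are shown for 4 receptors that differ in direction and in CpG content, 5′ to 3′, with each CpG in capitals. Il2rg (chrX:101268256-101268405, minus strand) and Il3ra (chr14:14346345-14346494, plus strand) were lower and hold 3 and 13 CpG. Il17re (chr6:113458621-113458770, plus strand) and Il13ra2 (chrX:147429193-147429342, minus strand) were higher and hold 1 and 0 CpG.
Il2rg: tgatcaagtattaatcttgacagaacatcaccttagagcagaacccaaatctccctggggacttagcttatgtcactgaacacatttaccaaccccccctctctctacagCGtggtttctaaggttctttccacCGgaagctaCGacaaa
Il3ra: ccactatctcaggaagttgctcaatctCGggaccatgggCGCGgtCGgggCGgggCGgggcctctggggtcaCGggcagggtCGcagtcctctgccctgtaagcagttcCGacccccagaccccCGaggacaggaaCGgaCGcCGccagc
Il17re: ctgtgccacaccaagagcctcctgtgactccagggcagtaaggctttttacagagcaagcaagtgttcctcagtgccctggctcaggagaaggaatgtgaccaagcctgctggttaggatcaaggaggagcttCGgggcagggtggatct
Il13ra2: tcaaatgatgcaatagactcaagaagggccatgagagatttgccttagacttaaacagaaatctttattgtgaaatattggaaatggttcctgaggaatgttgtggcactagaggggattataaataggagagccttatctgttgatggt
Genes of either direction thus include windows with few CpG, and Il3ra, with the most among the receptor windows at 35 in its 300 bases, was lower.

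**Figure D4:**
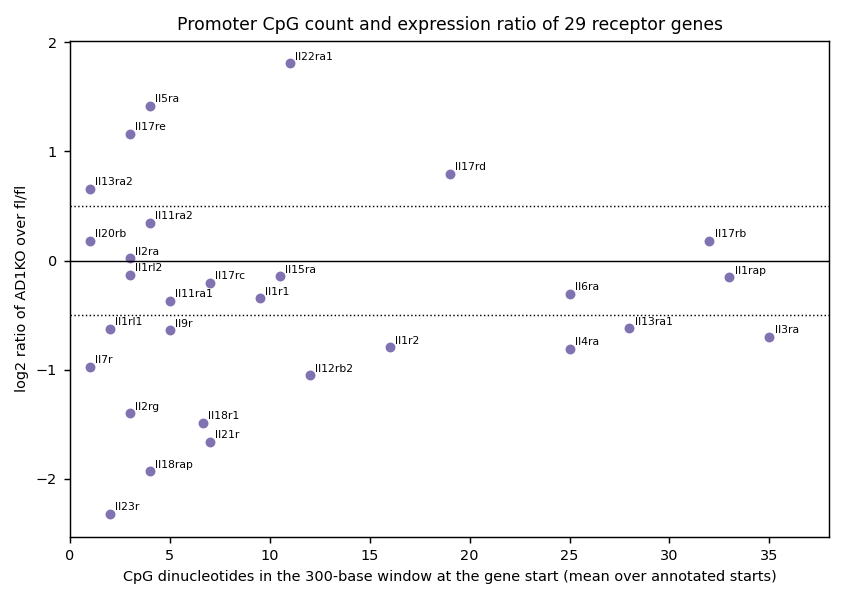
CpG count of the 300-base window at the gene start (horizontal axis, mean over annotated starts) against log2 of AD1KO over fl/fl (vertical axis) for the 29 receptor genes with a window, with dotted lines at -0.5 and 0.5. Genes with ratios beyond 1 in either direction have 12 CpG or fewer, and genes with 25 or more lie between -0.81 and 0.18.

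The windows were also searched for TTCNNNGAA, the palindrome that STAT dimers bind, which reads the same on both strands. It occurred in at least 1 window of 4 of the 13 lower receptor genes with a window, and in 0 of the other 16. By gene, it occurred in 8.39% of the 11901 genes of the table with a window, and by window in 8.30% of all 32851. Among all genes of the table with a window, it was present in 10.3% of lower, 7.20% of higher and 8.13% of other genes. The 4 matches are printed with 10 bases on each side and the motif in capitals, since no other receptor window held the motif.
Il18r1 (chr1:40465777-40465805, plus strand): tcggggttagTTCTGGGAActgtggagct
Il7r (chr15:9530000-9530028, minus strand): gttcaggagcTTCAGGGAAtaccaagatg
Il12rb2 (chr6:67376293-67376321, minus strand): gttcccttttTTCTCAGAAccgcactaag
Il1r2 (chr1:40085972-40086000, plus strand): cgggtgctttTTCAAGGAActtccgacta
A match describes these letters only, and binding was not measured. The receptors with a match had log2 ratios of -1.49, -0.97, -1.05 and -0.80 in this order, while Il18rap, Il21r and Il2rg, at -1.93, -1.66 and -1.40, had none in their windows. The counting intervals of Il12rb2 (-2.78 to 0.40, 19 reads) and Il1r2 (-1.61 to 0.06, 57 reads) included 0.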

How the data were processed

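RNA of gWAT from 4 female mice per genotype was pooled and sequenced as 1 library each. Alignment of the clean reads was to the mm9 build, done for the authors by a sequencing service. The deposited values are FPKM per gene to 2 decimals, with 0 written as 0.01. The aligner and the quantification program are not given in the sources used here. The table also holds the authors' log2 fold change, P-value and FDR for the libraries, which were not used. FPKM of 0.01 was set to 0.

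Reads were estimated from FPKM and the gene length of the deposited table. For genes of 300 to 900 bases, the depth and length correction that brought low values nearest to whole reads were 17700000 reads and 117 bases in fl/fl and 17450000 and 116 in AD1KO. Of 304 and 318 such values, 74.7% and 72.6% lay within 0.1 of a whole read. Estimated reads summed to 17833799 and 17561589 over all genes. Intervals at 95% are Clopper-Pearson (exact), except those for the difference of 2 genes' log2 ratios, which use a normal approximation on reads. No intervals cover variation between animals.

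With 1 library per group no test was run. A gene that reached 0.1 FPKM in either library was counted as lower or higher at a log2 ratio of 0.5, after adding 0.01 FPKM. All members are named, and those with at least 20 reads and past the threshold are described in full. Positions are from the GENCODE annotation of mm9. The members, gene lists, subunit pairs and promoter motif were chosen with earlier results of these data known. A gene of the JAK-STAT list is not reported here and was left out of its counts. The steps were tested on simulated data. Computation used SciPy 1.17.1 with pandas 2.3.3 and NumPy 2.4.6 under Python 3.11.15, and Matplotlib 3.10.9 drew the figures.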

Additional observations from a re-analysis of the deposited data

How the results depend on the processing

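No paired analysis was possible because each genotype has only 1 library, made from pooled RNA. The 19 lower and 6 higher receptor genes kept their counts when the libraries were scaled by the median of ratios, the upper quartile or the trimmed mean of M-values, and each of these genes stayed past the threshold. A pseudocount of 1 FPKM, which shrinks low genes, gave 12 lower and 2 higher receptor genes (10.5% and 6.09% of all genes) and a median of -0.27. A minimum of 1 FPKM left 27 receptor genes, 16 lower and 2 higher (16.3% and 10.1%). A threshold of 1 gave 9 lower and 4 higher (8.95% and 5.75%). Of these, Il22ra1, Il5ra and Il22ra2 (higher) reached 0.1 FPKM only in AD1KO, and Il23r (lower) only in fl/fl. Their direction follows from the minimum in each setting that counts them. With the entire interval required to lie past 0.5, 12 were lower and 2 higher (8.26% and 4.18%), and the higher ones again included Il22ra1. With at least 20 reads, a setting added after the data were seen, 17 of 31 were lower and 4 higher. The share of all genes with at least 20 reads was not computed.

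In the 5 lists of ligands, shared subunits, JAK-STAT, inhibitor and TIR genes, 26 of 67 were lower and 5 higher (19.1% and 14.3% of all genes). For the other settings, the shares of all genes are those given above beside the receptor genes. Lower genes numbered 17 with a pseudocount of 1 FPKM, 14 with a threshold of 1 and 14 with the whole interval. Higher genes numbered 1 with a pseudocount of 1 FPKM, 2 with a minimum of 1 FPKM, 3 with a threshold of 1 and 2 with the whole interval. The 3 at a threshold of 1 were Il13, Il5 and Il17b, and Il13 was also counted by the whole interval. These genes reached 0.1 FPKM only in AD1KO, so their direction follows from the minimum. The same holds for Il2, among the lower genes at a threshold of 1, which reached 0.1 FPKM only in fl/fl. Of 165 values of the 21 receptor genes described in full, 158 stayed within the gene's counting interval. The other 7 moved, all with the pseudocount of 1 FPKM, and 0 turned direction. Part of this was fixed in advance. A change of minimum leaves a gene's ratio as it is, and the ratio of estimated reads lies within the interval made from those reads. Only the scalings and pseudocounts could move a value. Depth limits Il23r, Il12rb2, Il22ra2, Il5ra and Il11ra2, each under 20 reads.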

Other observations

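Antagonists and inhibitors of interleukin signalling were lower in 6 of 15 genes and higher in 0, against 19.1% and 14.3% of all genes. Il18bp, the soluble protein that neutralises IL-18, measured 23.1 FPKM in fl/fl against 4.68 in AD1KO (log2 ratio -2.30, interval -2.61 to -1.997), beside a smaller difference of Il18 itself. Il1rn, the IL-1 receptor antagonist, was at 19.2 and 7.82 FPKM, a ratio of -1.29 (interval -1.49 to -1.11), below the interval of Il1r1.

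Among intracellular inhibitors, Socs1, which limits interferon and common gamma signalling, was at 11.7 and 2.45 FPKM, a ratio of -2.25 (interval -2.71 to -1.79). Socs3, the inhibitor of gp130 signalling, was at 11.02 and 5.06 FPKM (ratio -1.12), and Socs2 at 6.40 and 3.87 FPKM (ratio -0.72). Cish, a STAT5 target, was at 1.77 and 1.79 FPKM (interval -0.41 to 0.46). Ptpn6 (SHP-1), a phosphatase of haematopoietic cells, was at 59.5 and 20.2 FPKM, a ratio of -1.56 (interval -1.68 to -1.44). The part of leukocyte content in these values was not tested.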
